A study of Mus musculus with 28 samples.

Results

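Late maturation of mouse rod photoreceptors was read from arrays of postnatal days 21 and 28 (P21 and P28), pooled, against arrays of P10 and P12, pooled. The members are the 17 arrays whose titles carry these ages, of 28 in the series, with 14860 genes measured on each. The earlier side held 8 arrays (4 at P10 and 4 at P12) and the later side 9 (4 at P21 and 5 at P28), with 1 array per sample. The other 11 arrays, from P2, P4 and P6, added to the estimate of the spread between replicates and are quoted as earlier levels.

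All mice were C57Bl/6 and carried Nrlp-GFP, a transgene that makes green fluorescent protein under control of the Nrl promoter, which is active in rods. The retinas are called wild-type in the labels, and no age received a drug or a lesion. Papain freed the cells, flow sorting kept those with GFP, and samples were kept only when a repeat sort showed high purity. Amplified RNA was read on Affymetrix Mouse Exon ST arrays, which carry probes along the exons of each gene. Nothing in the labels tells whether replicates were separate mice, litters or pools. The p-values therefore measure only the spread between these samples, which may be technical.

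Rods are the retinal cells of dim-light vision. Light acts through transducin and a phosphodiesterase to lower cyclic GMP and close cation channels, and the fall in calcium then lets the guanylate cyclase activating proteins (GCAPs) restore cyclic GMP. In the mouse retina the light-sensing outer segment and the ribbon synapse form after birth, the eyes open between the ages compared here, and mature rods turn much of their glucose into lactate.

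Levels are log2 values from the authors' RMA processing, so a difference of 1 is a 2-fold change. A gene was called risen or fallen when it passed an adjusted p of 0.05 over all genes (limma, Benjamini-Hochberg) and its mean differed by 2-fold or more. Genes that define rods were high on both sides. Nrl, the transcription factor that fixes rod fate, stood at 10.01 ± 0.10 (SD, n = 8) at P10 and P12 and 9.98 ± 0.07 (SD, n = 9) at P21 and P28. Gnat1, the alpha subunit of rod transducin, stood at 12.99 ± 0.20 and 13.25 ± 0.06, and Pde6b, a catalytic subunit of the rod phosphodiesterase, at 12.40 ± 0.07 and 12.58 ± 0.12. None of these genes reached a 2-fold difference. Array medians lay between 6.76 and 6.85 on the earlier side and between 6.72 and 6.82 on the later. P12 replicate 3 stood apart from its age: it was the lowest of the 4 P12 arrays in 41 of the 51 genes that rose and the highest in 59 of the 128 that fell. Without it, 51 genes rose and 129 fell, of which 49 and 120 were called with all arrays.

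The later rods differed from the earlier ones in 179 of 14860 genes, which is 1.20% of all genes. Of these, 51 rose (0.343% of all genes) and 128 fell (0.861%). The median fold was 2.59 among the risen genes and 2.36 among the fallen ones, and the largest were 7.62 and 36.0. A change of 4-fold or more was seen in 8 risen and 9 fallen genes. All 9 later arrays lay above all 8 earlier ones in 41 of the risen genes, and below them in 88 of the fallen genes. Over all genes, the arrays were parted in this way upward in 0.734% and downward in 3.27%. Without the 2-fold threshold, 511 genes passed upward (3.44%) and 2030 downward (13.7%), together 17.1% of all genes. The median change of all genes was -0.017, and in the 1818 genes with a mean level above 9 it was -0.19.

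**Figure D1:**
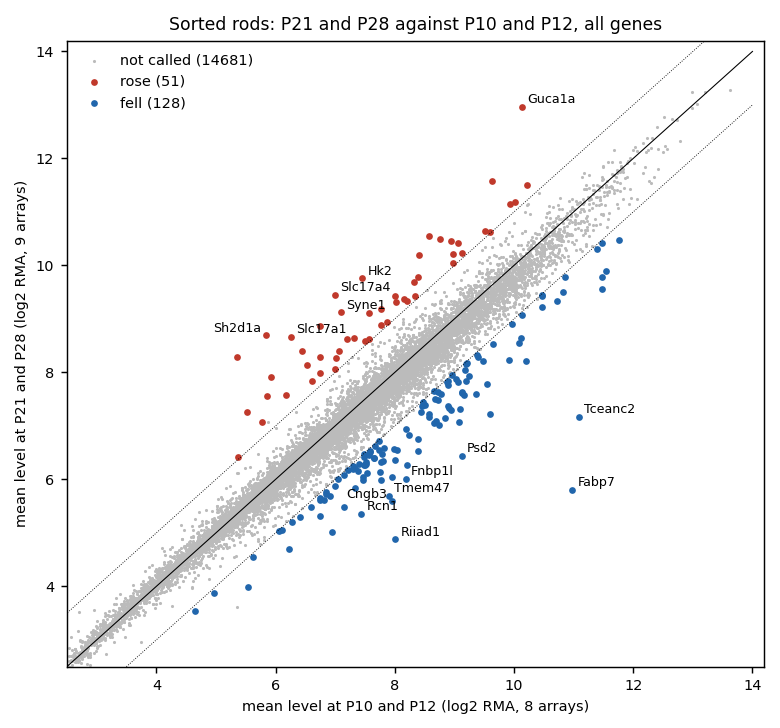
Mean level of each gene at P10 and P12 (x axis, log2 RMA, 8 arrays) against its mean at P21 and P28 (y axis, log2 RMA, 9 arrays), with dotted lines at 2-fold. The 51 risen genes lie above the upper line and the 128 fallen genes below the lower line, Fabp7 and Tceanc2 farthest from it.

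The levels at P2, P4 and P6 come from arrays outside the contrast. The median level over the 51 risen genes was 6.55, 6.50 and 6.51 at P2, P4 and P6, then 7.41 at P10, 7.83 at P12, 9.07 at P21 and 9.14 at P28. The median was thus nearly the same from P2 to P6 and higher at P10, but single genes took other courses: Hdac9, a histone deacetylase, had means of 9.61 at P2 and 8.88 at P10, and Prim1, a DNA primase subunit, of 7.60 at P2 and 5.44 at P12 (both chosen after their values were seen). The median over the 128 fallen genes was 8.70, 8.58 and 8.96 at P2, P4 and P6, then 8.46 at P10, 8.20 at P12, 6.79 at P21 and 6.56 at P28. Single arrays followed the same course: the median of the risen genes was 7.15 to 7.62 at P10, 7.72 to 8.05 at P12, 8.90 to 9.13 at P21 and 8.89 to 9.35 at P28.

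**Figure D2:**
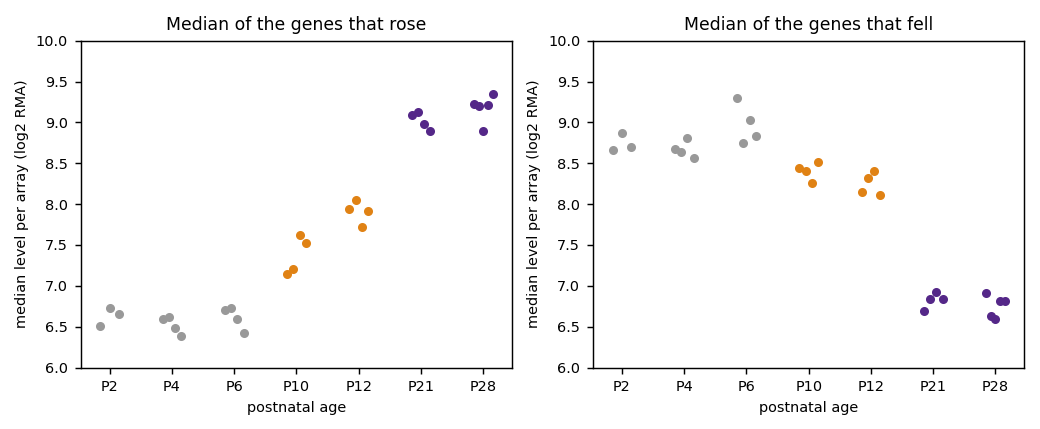
Median level (y axis, log2 RMA) of the 51 risen genes (left) and the 128 fallen genes (right) in each of the 28 arrays by postnatal age (x axis), 1 point per array. P10 and P12 points for the risen genes lie between 7.15 and 8.05 and P21 and P28 points between 8.89 and 9.35; the genes were chosen on these 17 arrays.

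Among the genes of the light response, both GCAPs rose late. Guca1a, which encodes GCAP1, rose 7.11-fold (log2 change 2.83 ± 0.23, SE; adjusted p = 1.24e-09). Its levels were 9.64, 8.78, 9.50 and 9.69 at P10, 11.41, 11.42, 9.35 and 11.25 at P12, 12.95, 12.97, 13.09 and 13.03 at P21, and 12.90, 12.85, 12.99, 12.96 and 12.91 at P28. All later arrays lay above all earlier ones, and P12 replicate 3 lay with the P10 arrays rather than with the other P12 arrays. Without that array the change was 2.72. The mean of Guca1a was 9.74, 9.39 and 9.78 at P2, P4 and P6 and 9.40 at P10, so no higher level had been reached at P10.

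Guca1b, which encodes GCAP2 and lies next to Guca1a on chromosome 17, rose 2.32-fold (1.22 ± 0.17, adjusted p = 1e-05). Its levels were 9.75, 8.90, 9.83 and 9.54 at P10, 10.74, 10.71, 9.56 and 10.43 at P12, 11.36, 11.43, 11.34 and 11.35 at P21, and 11.36, 11.25, 10.50, 10.91 and 10.83 at P28. The sides overlapped, and against P12 alone the change was 0.79, below 2-fold. The cyclases that GCAPs activate stayed under the threshold, Gucy2e at 0.26 ± 0.10 and Gucy2f at 0.47 ± 0.16.

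The promoter of Guca1a is printed because it has the largest late rise among light-response genes. Those of Slc17a1 and Slc17a3 are printed because these neighbours rose together, and that of Pdzph1 because it holds a motif of the MEF2 family, a member of which rose. Each window runs from 250 bases before to 50 after the start of the gene in RefSeq (GRCm38.p6) and is written 5′ to 3′ on the strand of the gene. Capitals mark a match, on either strand, to TAATCC (CRX-type), TGCTGA (part of the NRL site) or CTANNNNTAG (MEF2-type).
Guca1a, chr17:47400557-47400856, minus strand: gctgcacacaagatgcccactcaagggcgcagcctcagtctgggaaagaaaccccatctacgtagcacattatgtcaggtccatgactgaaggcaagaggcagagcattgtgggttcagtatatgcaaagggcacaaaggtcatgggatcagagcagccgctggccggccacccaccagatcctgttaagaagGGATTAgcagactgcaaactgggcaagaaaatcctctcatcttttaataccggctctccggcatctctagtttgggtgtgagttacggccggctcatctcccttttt
Pdzph1, chr17:58991326-58991625, minus strand: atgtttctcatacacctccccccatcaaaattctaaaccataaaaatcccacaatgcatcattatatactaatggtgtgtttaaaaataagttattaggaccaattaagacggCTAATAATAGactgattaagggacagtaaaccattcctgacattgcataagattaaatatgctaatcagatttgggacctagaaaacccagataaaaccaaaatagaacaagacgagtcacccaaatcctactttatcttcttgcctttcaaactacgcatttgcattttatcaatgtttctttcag
Slc17a1, chr13:23868768-23869067, plus strand: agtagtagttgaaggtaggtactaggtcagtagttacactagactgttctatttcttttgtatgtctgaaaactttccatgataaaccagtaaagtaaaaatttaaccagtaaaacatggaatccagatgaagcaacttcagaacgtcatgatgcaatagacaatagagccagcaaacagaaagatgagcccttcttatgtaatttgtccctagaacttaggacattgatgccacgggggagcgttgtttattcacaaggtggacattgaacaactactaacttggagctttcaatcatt
Slc17a3, chr13:23839184-23839483, plus strand: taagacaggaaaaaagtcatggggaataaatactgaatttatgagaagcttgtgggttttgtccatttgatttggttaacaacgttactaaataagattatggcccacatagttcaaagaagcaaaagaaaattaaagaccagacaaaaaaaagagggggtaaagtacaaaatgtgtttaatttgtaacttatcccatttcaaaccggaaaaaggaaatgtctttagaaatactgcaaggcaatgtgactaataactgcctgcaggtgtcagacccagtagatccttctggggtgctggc

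The window of Guca1a holds 1 CRX-type match, read on the opposite strand, and that of Pdzph1 holds 1 MEF2-type match. Those of Slc17a1 and Slc17a3 hold none of these letters. A promoter was found for 43 of the 51 risen genes, 99 of the 128 fallen genes and 11894 of all genes analysed. TAATCC occurred in 9.30% of the risen and 7.07% of the fallen promoters, against 5.98% of those of all genes analysed. TGCTGA occurred in 9.30% and 23.2%, against 16.5%, and CTANNNNTAG in 4.65% and 3.03%, against 3.47%. With 43 promoters, 9.30% is 4 promoters, and a letter match is not a measured binding site.

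No other gene in the lists of activation and of shutoff and recovery was called, although several passed the adjusted p with smaller changes. Light-response genes of cones are given below with the cone markers. Of 9 measured genes of the activation side, 0 rose and 0 fell, 3 passed the adjusted p alone, all upward (3.44% of all genes did so), and the median change was 0.18, or 0.31 after cyclic loess. They ran from -0.21 ± 0.08 for Cngb1, a subunit of the rod channel, to 0.51 ± 0.11 for Pde6a, the partner of Pde6b. Of 15 genes of shutoff and recovery, 2 rose, the GCAPs, and 0 fell, while 7 passed the adjusted p alone, all upward. The median was 0.12, and 0.26 and 0.34 after quantile normalization was applied again and after cyclic loess. Rgs9bp, which anchors the complex that switches transducin off, changed by 0.69 ± 0.18, and Grk1, a kinase of the shutoff step, by 0.49 ± 0.12; both passed the adjusted p but not the fold. Recoverin (Rcvrn), another calcium sensor, showed -0.37 ± 0.15 (adjusted p = 0.101).

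Outer segment and cilium genes, retinoid enzymes, and rod channels and pumps held few calls. Of 32 outer segment and cilium genes, 0 rose and 0 fell, from -0.91 ± 0.06 for the motor protein Myo7a to 0.56 ± 0.11 for the actin bundler Fscn2. Their median was -0.14, and it was 0.03 after cyclic loess, so its sign rests on the scaling. Of 13 retinoid cycle genes 1 fell and 0 rose, with a median of -0.03. The one that fell was Rdh10, a retinol dehydrogenase (-1.08 ± 0.14), with levels of 8.24 to 8.63 before and 6.65 to 7.87 after. Its call was lost after both other scalings (-0.99 and -0.96), without P28 replicate 3 (-0.99), and without P28 replicate 2, where it fell just short of 2-fold. The call was also lost for P21 alone (-0.83). Of 17 channel, pump and transporter genes of rods, 0 rose and 0 fell; the water channel Aqp1 was highest at 0.73 ± 0.10 and the sodium pump subunit Atp1b1 lowest at -0.86 ± 0.28.

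Of 23 measured genes of glycolysis and lactate, 3 rose (Hk2, Pfkp and Slc16a1) and 1 fell (Ckb). Over all genes 0.343% rose and 0.861% fell. The list median was -0.06, which became 0.07 and 0.08 under the other scalings. Hk2, hexokinase 2, which traps glucose in the cell, rose 4.94-fold (2.30 ± 0.15, adjusted p = 1.78e-11). Its levels were 7.12, 7.08, 7.26 and 7.03 at P10, 7.94, 8.10, 7.52 and 7.59 at P12, 9.79, 10.03, 9.98 and 10.07 at P21, and 10.40, 9.44, 9.15, 9.60 and 9.35 at P28. The highest earlier array was 8.10 and the lowest later array 9.15, and the mean at P6 was 6.97. Pfkp, a phosphofructokinase, rose 2.15-fold (1.10 ± 0.10), with levels of 8.78 to 9.44 before and 9.88 to 10.53 after. Slc16a1, a carrier of lactate and pyruvate, rose 2.1-fold (1.07 ± 0.12), with levels of 7.29 to 8.55 before and 8.75 to 9.32 after. The call of Slc16a1 was lost without P10 replicate 2 (0.98) or 3 (0.99), and against P12 alone its change was 0.63, where Pfkp was at 0.97. For P21 alone Slc16a1 was at 0.96, and with P28 alone Pfkp was at 0.98, both below 2-fold.

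Ckb, a creatine kinase that buffers ATP, fell 2.6-fold (-1.38 ± 0.20). Its levels were 10.85, 10.69, 10.66 and 11.09 at P10, 10.41, 10.95, 10.31 and 10.76 at P12, 9.41, 10.35, 10.25 and 9.84 at P21, and 9.91, 9.28, 8.74, 7.80 and 8.46 at P28. P21 replicate 2 overlapped the lowest P12 array, 4 of the 5 P28 arrays lay below all P21 arrays, and for P21 alone the change was -0.75. Of 19 genes of the tricarboxylic acid cycle, 0 rose and 0 fell, with a median of -0.14 that was 0.00 and 0.01 under the other scalings.

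Of 44 oxidative phosphorylation genes, 0 rose and 1 fell. It was Ndufa1, a subunit of complex I (-1.24 ± 0.14), with levels of 10.28 to 11.06 before and 8.43 to 9.70 after, and for P21 alone the change was -0.89, below the threshold. The changes of 41 of the 44 lay below 0, with a median of -0.39, and 26 passed the adjusted p alone, all downward, against 13.7% of all genes. The median was -0.25 after quantile normalization was applied again and -0.26 after cyclic loess. The median of bright genes as a whole also lay below 0, at -0.19; its part in this list was not tested.

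Among transcription regulators of photoreceptors, Mef2c rose and Neurod4 fell. Mef2c, a MADS-box factor, rose 3.97-fold (1.99 ± 0.13, adjusted p = 4.06e-11). Its levels were 8.16, 8.09, 8.23 and 8.50 at P10, 9.25, 9.29, 8.17 and 8.85 at P12, 10.59, 10.55, 10.45 and 10.51 at P21, and 10.79, 10.21, 10.74, 10.61 and 10.53 at P28. The sides did not overlap, and its age means climbed from 6.88 at P2 through 7.25 at P6. Neurod4, a proneural bHLH factor, fell 3.41-fold (-1.77 ± 0.26), with overlapping levels of 8.14 to 9.66 (median 9.15) at P10 and P12 and 5.84 to 8.77 (median 7.23) at P21 and P28.

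The factors that switch on photoreceptor genes stayed under the 2-fold threshold. Crx changed by -0.59 ± 0.07, from 11.15 ± 0.05 to 10.56 ± 0.24, and Otx2 by -0.55 ± 0.05, from 11.50 ± 0.06 to 10.94 ± 0.16 (SD, n = 8 and 9). Both passed the adjusted p. Prdm1, which restrains the bipolar fate, was just under the threshold at -0.97 ± 0.08, and Esrrb, a nuclear receptor, was at 0.63 ± 0.08. Of 23 regulators, 1 rose and 1 fell, with a median of -0.23, or -0.10 and -0.13 under the other scalings. Of 19 clock genes, 0 rose and 0 fell, and Arntl, the core activator BMAL1, was at -0.00 ± 0.05, adjusted p = 0.996. Of 24 immediate early genes, 0 rose and 0 fell, the median was -0.07, and 4 passed the adjusted p alone, all downward. Egr1, Fos and Jun, which respond within minutes to stimulation, were far below that median, at -0.94 ± 0.09, -0.91 ± 0.13 and -0.78 ± 0.11.

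A run of neighbours on chromosome 13 rose together. Slc17a4, Slc17a1 and Slc17a3 encode carriers of organic anions and phosphate, known from kidney and intestine, and lie next to each other in the RefSeq order of protein-coding genes. Slc17a4 rose 5.52-fold (2.46 ± 0.13, adjusted p = 5.74e-13). Its levels were 6.76, 6.38, 6.43 and 6.60 at P10, 7.60, 7.59, 6.98 and 7.55 at P12, 9.09, 9.29, 9.09 and 8.90 at P21, and 8.96, 9.54, 9.85, 9.95 and 10.41 at P28. The sides did not overlap, which was a rule for choosing this gene. P12 replicate 3 was the lowest of its age, and without it the change was still 2.46.

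Slc17a1 rose 5.35-fold (2.42 ± 0.13), with levels of 5.94, 6.02, 6.21 and 5.58 at P10, 7.06, 6.72, 5.70 and 6.80 at P12, 8.42, 8.68, 8.57 and 8.63 at P21, and 8.78, 8.55, 8.62, 8.89 and 8.92 at P28. Its mean was 5.47 at P2 and 5.45 at P6, so it had barely left its newborn level at P10. Slc17a3 rose 3.96-fold (1.98 ± 0.12), with levels of 5.45 to 6.66 (median 5.87) at P10 and P12 and 7.44 to 8.31 (median 7.97) at P21 and P28. The next gene on the Slc17a3 side, Slc17a2, was at 0.67 ± 0.12 (adjusted p = 0.000156), under the fold threshold. Of the genes around this run, H2bc1, the nearest measured one beyond Slc17a4, was at 0.59 ± 0.33 (adjusted p = 0.257), H1f1 at 0.01 and Scgn at -0.07. These 3 carriers are paralogs of similar sequence, so probes may share signal between them, which was not tested.

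**Figure D3:**
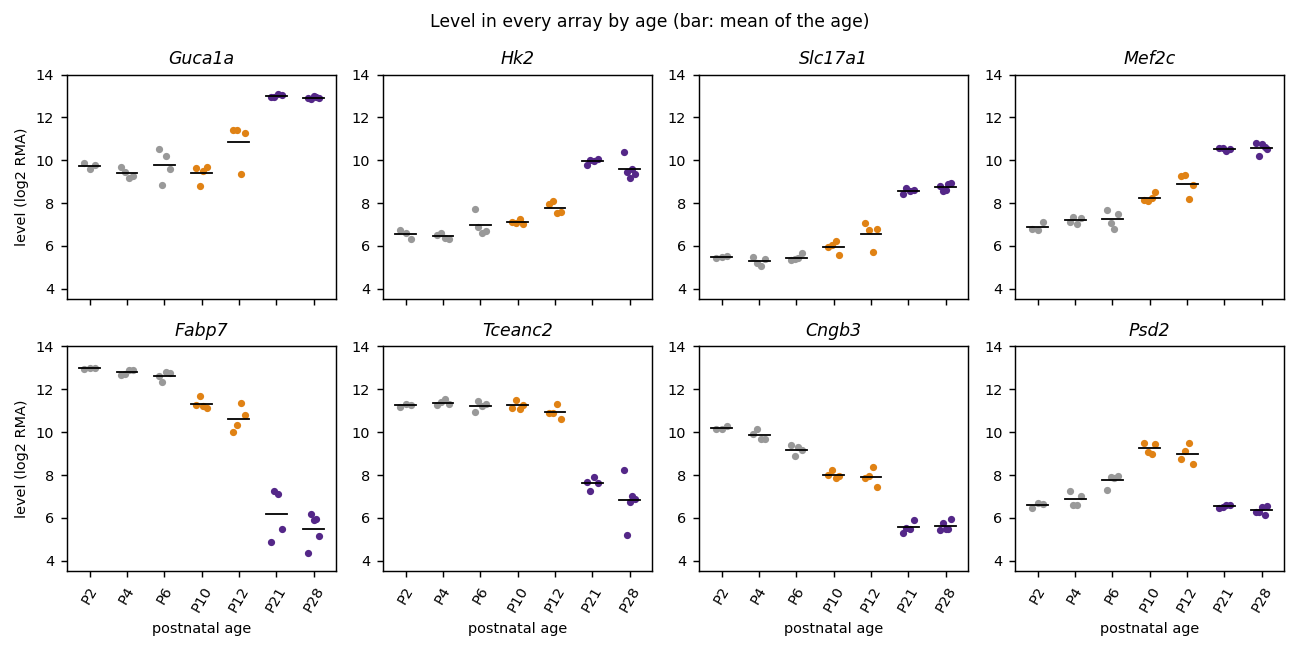
Level (y axis, log2 RMA) of named genes in each of the 28 arrays by postnatal age (x axis), 1 point per array, with a bar at each age mean. Guca1a and Hk2 climb between P12 and P21, Fabp7 and Cngb3 lie lower at P10 than at P2, and the low P12 point of Guca1a, at 9.35, is P12 replicate 3.

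The other large rises came from genes of several kinds. Sh2d1a, known as the lymphocyte adaptor SAP, rose 7.22-fold (2.85 ± 0.18, adjusted p = 1.18e-11). Its levels were 6.02, 5.24, 5.55 and 6.16 at P10, 6.55, 6.10, 5.41 and 5.67 at P12, 8.94, 8.59, 8.30 and 8.58 at P21, and 8.14, 8.59, 8.76, 9.14 and 9.16 at P28. The gap between the sides ran from 6.55 to 8.14. Syne1, a nesprin that ties the nucleus to the cytoskeleton, rose 4.09-fold (2.03 ± 0.09), with levels of 6.65 to 7.40 (median 7.15) at P10 and P12 and 8.70 to 9.64 (median 9.13) at P21 and P28. Sgk1, a kinase that acts on ion transport, rose 3.82-fold (1.93 ± 0.12), with levels of 6.18 to 6.74 (median 6.45) at P10 and P12 and 7.75 to 8.94 (median 8.31) at P21 and P28. Its means from P2 to P12 were flat, between 6.12 and 6.51.

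Pdzph1, a gene with a PDZ and a pleckstrin homology domain, rose 3.86-fold (1.95 ± 0.14), with levels of 8.76 to 10.46 (median 9.37) at P10 and P12 and 11.43 to 11.76 (median 11.55) at P21 and P28. Its mean was 6.26 at P6 and 9.17 at P10, so most of its climb preceded P12. Trpc1, a cation channel subunit, rose 3.43-fold (1.78 ± 0.12), with levels of 8.09 to 8.93 before and 9.74 to 10.65 after. Gpsm2, which binds G protein alpha subunits, rose 3.36-fold (1.75 ± 0.15), with levels of 7.80 to 9.71 before and 10.34 to 10.59 after. None of these genes overlapped between the sides, because lack of overlap was a rule for choosing them. The largest rise in the whole table, H2ac6, a histone H2A gene, lies outside this set because its sides overlapped: it rose 7.62-fold, from 3.84 to 6.67 before to 5.81 to 10.21 after. It is named after its value was seen, and histone H2A genes are near-identical copies that share probes in part.

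Smaller rises came from the pathway lists. Cds1, which makes CDP-diacylglycerol for phospholipids, rose 2.1-fold (1.07 ± 0.11), with levels of 8.45 to 9.54 before and 9.68 to 10.58 after. Against P12 alone, and likewise for P21 alone, it was at 0.78, below 2-fold. Cdkn2c, the cell cycle inhibitor p18, rose 2.47-fold (1.30 ± 0.26, adjusted p = 0.000523), with levels of 5.09 to 6.49 (median 5.65) at P10 and P12 and 6.51 to 7.80 (median 7.02) at P21 and P28. It was the only called gene of 40 cell cycle genes, whose median was 0.01, and with P28 alone as the later side it was 0.95, below the threshold. Hspa1a, an inducible heat shock protein, rose 2.17-fold (1.12 ± 0.34, adjusted p = 0.022), with levels of 7.03 to 8.34 (median 7.78) at P10 and P12 and 8.14 to 9.36 (median 8.94) at P21 and P28. That call was lost without P10 replicate 2 (1.02, adjusted p = 0.0557), against P12 alone (0.80, adjusted p = 0.257) and for P21 alone (0.83, adjusted p = 0.288). Outside the contrast, P4 replicate 2 was at 8.78 and the other P4 arrays at 4.95 to 5.04. The P4 SD was 1.89, against 0.42 at P10 and P12 and 0.38 at P21 and P28. P4 added to the spread behind these p-values. A fit of the 17 arrays alone, which leaves out P2, P4 and P6, called the same 51 risen genes, Hspa1a among them. The part of P4 by itself was not tested.

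**Figure D4:**
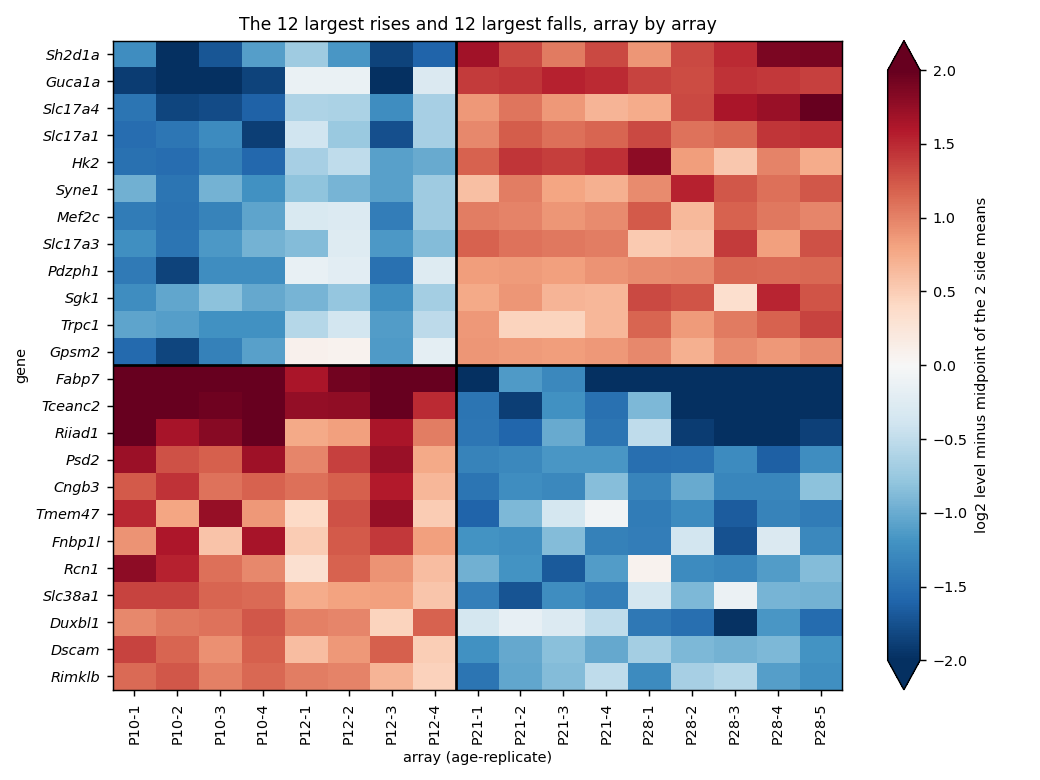
Level of the 24 genes with the largest non-overlapping changes (rows) in each of the 17 arrays (columns, ordered by age), as log2 level minus the midpoint of the means of the sides; colours end at 2 either way. The 12 risen genes (top) turn from blue to red at P21 and the 12 fallen genes (bottom) from red to blue, and P12 replicate 3 is bluer than its age for Guca1a (9.35) and Pdzph1 (9.12).

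Fabp7 had the largest fall. It encodes a fatty acid binding protein of neural progenitors and glia and fell 36.0-fold (-5.17 ± 0.28, adjusted p = 5.25e-13). Its levels were 11.26, 11.68, 11.22 and 11.13 at P10, 10.01, 10.32, 11.34 and 10.81 at P12, 4.89, 7.25, 7.10 and 5.48 at P21, and 4.34, 6.16, 5.92, 5.95 and 5.14 at P28. No later array came near an earlier one, although the later arrays differ among themselves by more than the earlier ones. Its means at P2, P4 and P6 were 12.98, 12.80 and 12.64, among the brightest in the data. The summed level of 15 markers of Muller glia, cells that can also express Fabp7, was 12.37 to 12.87 before and 12.01 to 12.91 after. Of 23 progenitor genes Fabp7 alone fell, 0 rose and the median was -0.11; Pax6 was at -0.85 ± 0.20.

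Tceanc2, a gene with a domain of transcription elongation factors, fell 15.1-fold (-3.92 ± 0.23, adjusted p = 2.98e-12). Its levels were 11.15, 11.49, 11.08 and 11.28 at P10, 10.88, 10.90, 11.31 and 10.62 at P12, 7.67, 7.25, 7.92 and 7.64 at P21, and 8.23, 5.19, 6.72, 7.03 and 6.90 at P28. Its mean was 11.25 at P2 and 10.93 at P12, a flat course before the fall. Riiad1 fell 8.74-fold (-3.13 ± 0.18), with levels of 7.21 to 8.93 (median 8.08) at P10 and P12 and 4.11 to 5.93 (median 4.86) at P21 and P28. It lies next to Celf3, a regulator of splicing, which also fell (-1.65 ± 0.08).

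Some of the fallen genes had been higher at P10 than at P2. Psd2, an exchange factor for the small GTPase ARF6, fell 6.41-fold (-2.68 ± 0.12), with levels of 8.53 to 9.50 (median 9.10) at P10 and P12 and 6.15 to 6.62 (median 6.49) at P21 and P28. Its mean had been 6.61 at P2, 7.77 at P6 and 9.25 at P10, and at P28 it was 6.35. Dscam, a cell adhesion molecule of neurons, fell 3.84-fold (-1.94 ± 0.10), from a P10 mean of 8.39 to 6.30 at P28, against 7.36 at P2. Duxbl1, a double homeobox gene, fell 3.96-fold (-1.98 ± 0.15), from 10.30 at P10 through 8.89 at P21 to 7.69 at P28. It belongs to a family of near-identical copies, so its signal may be shared.

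The other large falls were Tmem47, a membrane protein of cell junctions (-2.21 ± 0.19), Fnbp1l, which bends membranes and recruits actin (-2.17 ± 0.20), and Rcn1, a calcium-binding protein of the endoplasmic reticulum (-2.10 ± 0.17). Slc38a1, a glutamine carrier of neurons, fell 3.97-fold, with levels of 8.63 to 9.43 before and 6.35 to 7.96 after. Rimklb, which makes N-acetylaspartylglutamate, fell 3.81-fold, with levels of 6.44 to 7.22 before and 4.51 to 5.47 after. None of these genes overlapped between the sides, because lack of overlap was a rule for choosing them.

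Genes of neurite growth, guidance and adhesion leaned down as a list. Of 45 measured, 3 fell and 0 rose; 44 changes were below 0, the median was -0.32, and 23 passed the adjusted p alone, all downward. Over all genes 0.861% fell, 13.7% passed the adjusted p alone downward, and the median was -0.017. Tubb2a, a tubulin of growing neurons, fell 3.8-fold (-1.93 ± 0.31), with levels of 10.75 to 12.06 (median 11.65) at P10 and P12 and 7.88 to 10.60 (median 9.51) at P21 and P28; tubulin genes are close copies. Slitrk6, a synapse-organising membrane protein, fell 2.89-fold (-1.53 ± 0.24), with levels of 5.69 to 7.02 before and 3.21 to 6.03 after. Epha7, an ephrin receptor, fell 2.06-fold (-1.04 ± 0.13), with levels of 6.76 to 7.45 before and 5.93 to 6.72 after; its call was lost with P28 alone (-0.93) and, just short of 2-fold, against P10 alone. The median was -0.28 and -0.29 under the other scalings. The summed level of 14 amacrine markers was also lower, 11.10 to 11.47 before and 10.72 to 10.98 after, and its part in this list was not tested.

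In the ribbon synapse list, 1 of 24 genes fell and 0 rose. It was Nrxn3, a presynaptic adhesion molecule (-1.31 ± 0.10, adjusted p = 1.59e-10), with levels of 7.30 to 8.18 (median 7.88) at P10 and P12 and 6.13 to 6.78 (median 6.46) at P21 and P28. The vesicle proteins Sv2a and Syp were at -0.85 ± 0.12 and -0.62 ± 0.08, and Cacna1f, the calcium channel of the rod synapse, at 0.39 ± 0.08. The median of the list was -0.18, and -0.01 after cyclic loess.

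Among housekeeping lists, few members were called. Hmgn3, a nucleosome-binding protein, fell 2.82-fold (-1.49 ± 0.16), with levels of 8.83 to 9.43 before and 6.69 to 8.07 after, the only call of 31 chromatin genes (median -0.10, and 0.04 and 0.02 under the other scalings). Lbr, the lamin B receptor, described as absent from mature mouse rods, was at -0.08 ± 0.11, adjusted p = 0.714. Its mean level was 8.47 at P10 and P12 and 8.39 at P21 and P28. The highest array medians were 6.85 and 6.82, so its signal on these arrays was not low. Of 23 heat shock and folding genes, 1 rose (Hspa1a) and 1 fell, the endoplasmic reticulum chaperone Calr (-1.05 ± 0.10). Hspa5 and Pdia4, also of the endoplasmic reticulum, were just under the threshold at -0.88 ± 0.09 and -0.92 ± 0.09, and the list median was -0.34, or -0.23 under both other scalings. Of the 23 changes in this list, 19 lay below 0. The adjusted p alone was passed by 14 downward and 1 upward, against 13.7% and 3.44% of all genes.

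Elovl2, which elongates very long chain fatty acids, fell 2.06-fold (-1.05 ± 0.11), while Cds1 was the one riser of 29 lipid genes. Ctsl, a lysosomal protease, and Uchl1, a ubiquitin hydrolase of neurons, fell by similar amounts (-1.06 ± 0.09 and -1.06 ± 0.19), out of 24 autophagy, lysosome and ubiquitin genes, whose median of -0.21 was -0.08 and -0.02 under the other scalings. The calls of Calr, Elovl2 and Ctsl were lost under both other scalings, at -0.90 and -0.86, -0.89 and -0.85, and -0.91 and -0.89. Calr was also lost without P21 replicate 1, just short of 2-fold, Elovl2 without P12 replicate 3 (-0.96) or P28 replicate 3 (-0.97), and Uchl1 without P12 replicate 2 (-0.95). With P28 alone Calr was at -0.95, and for P21 alone Elovl2 was at -0.97 and Ctsl at -0.94. Against P12 alone Calr was at -0.95 and Elovl2 at -0.94, and against P10 alone Uchl1 was at -0.93, all below 2-fold. No gene was called among 16 of cholesterol synthesis, 29 of antioxidant defence, 33 of splicing, 25 of ribosome biogenesis or 27 of cell death, with medians between -0.18 and -0.02. Nsdhl, the lowest of the cholesterol genes (-0.92 ± 0.31, adjusted p = 0.0425), passed both thresholds with P28 alone (-1.79), with the replicate number as a block (-1.08) and without any 1 of the P21 arrays (-1.02 to -1.07).

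**Figure D5:**
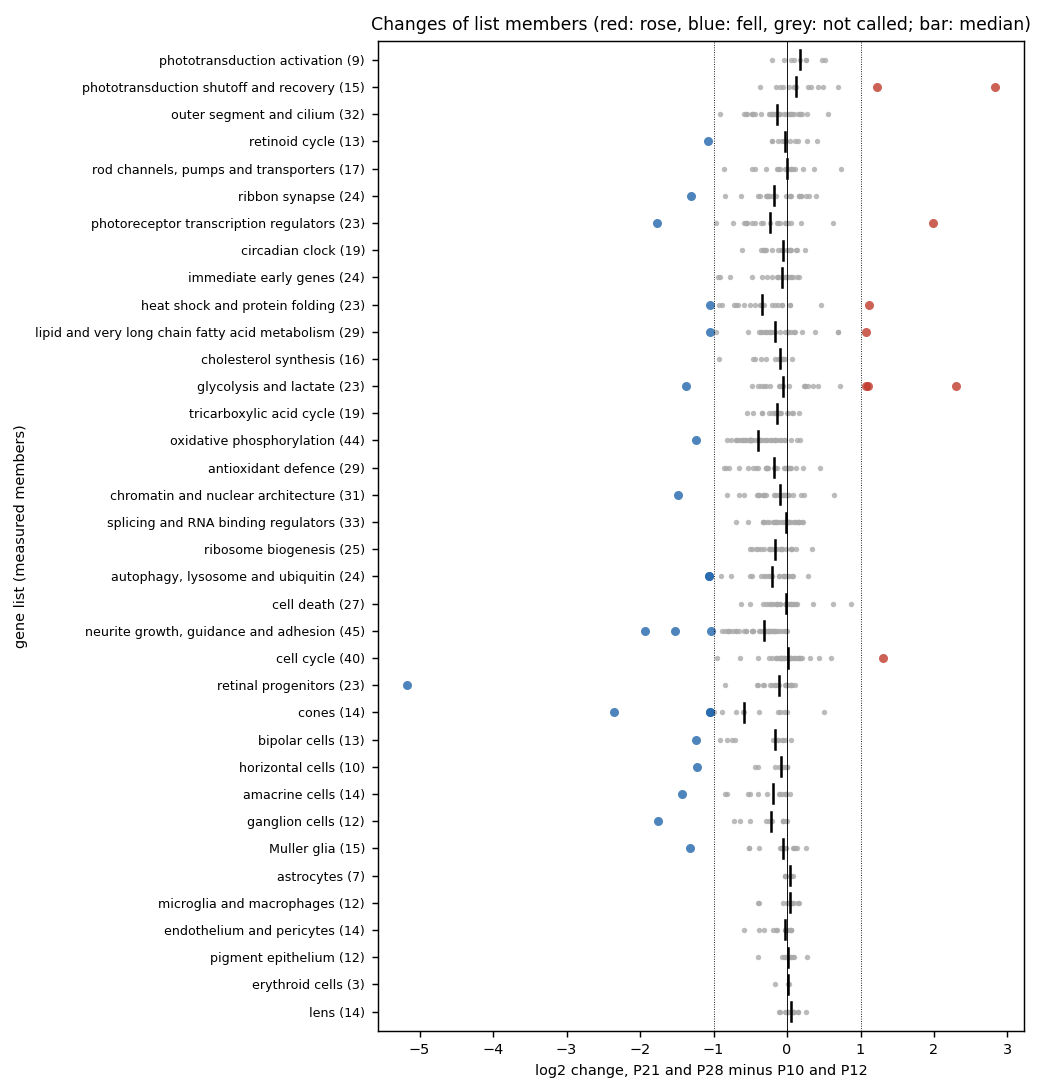
Change of each measured gene (x axis, log2, P21 and P28 minus P10 and P12) in each gene list (y axis), 1 point per gene, with the median of each list marked. The neurite and oxidative phosphorylation lists lie mostly left of 0, with medians of -0.32 and -0.39, and so do the cone markers, at -0.59.

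Markers of other retinal cells were measured in the same arrays. Of 14 cone markers, 3 fell (0.861% of all genes did) and 0 rose, and the median was -0.59. The changes of 12 of the 14 lay below 0, and 7 passed the adjusted p alone, all downward, against 13.7% of all genes. Cngb3, a subunit of the cone channel, fell 5.15-fold (-2.36 ± 0.11, adjusted p = 1.22e-13). Its levels were 8.00, 8.22, 7.86 and 7.96 at P10, 7.87, 7.97, 8.36 and 7.44 at P12, 5.31, 5.54, 5.49 and 5.92 at P21, and 5.45, 5.76, 5.47, 5.47 and 5.95 at P28. Its mean had been 10.20 at P2 and 9.19 at P6, so it was already far below its newborn level at P10. Gnb3 and Gngt2, transducin subunits of cones, fell by smaller amounts (-1.05 ± 0.15 and -1.05 ± 0.16). Both calls were lost after cyclic loess (-0.88 and -0.95) and against P12 alone (-0.74 and -0.96). Both were also lost after quantile normalization was applied again, Gnb3 at -0.91 and Gngt2 just short of 2-fold. Gnb3 was also lost without P10 replicate 2 (-0.98) or P21 replicate 3 (-0.97) and with P28 alone (-0.86). Gngt2 was also lost without P28 replicate 4 (-0.93) and for P21 alone (-0.87).

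The defining cone genes were not called. Opn1sw, the short-wave opsin, was at -0.89 ± 0.26, adjusted p = 0.0173. Arr3, the cone arrestin, was at 0.50 ± 0.20, adjusted p = 0.0865, the highest change of the cone list. The summed level of the cone markers was 11.52 to 12.04 on the earlier arrays and 10.59 to 11.74 on the later ones. In a sorted sample, fewer cells of a type and less RNA per cell cannot be told apart.

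In each list of inner retinal neurons 1 marker fell, where 0.861% of all genes fell, and 0 rose. These were Isl1 of 13 bipolar markers (-1.24 ± 0.18), Prox1 of 10 horizontal cell markers (-1.22 ± 0.22), Tfap2b of 14 amacrine markers (-1.43 ± 0.29) and Nefm of 12 ganglion cell markers (-1.75 ± 0.32). The list medians were -0.17, -0.08, -0.19 and -0.22. In the same order, 12, 8, 13 and 11 of the markers had changes below 0. The adjusted p alone was passed by 4, 2, 5 and 4, all downward, against 13.7% of all genes. Of 15 Muller glia markers 1 fell, Dbi (-1.32 ± 0.15), and the median was -0.05. The changes of 10 of the 15 lay below 0, and 3 passed the adjusted p alone, all downward. Glul, which defines these glia, was at the upper end of the list, at 0.26 ± 0.11. The summed level of the ganglion cell markers was 10.69 to 11.56 before and 10.31 to 11.00 after, that of the bipolar markers 10.82 to 11.50 and 10.60 to 11.08, and that of the horizontal cell markers 10.36 to 10.65 and 10.12 to 10.40. These sums overlapped between the sides, and those of the amacrine markers did not. Several fallen genes named above, Fabp7 and the neurite genes among them, are also used by these cells, and the part of such cells in the falls was not tested. No marker of astrocytes (7), microglia (12), endothelium (14), pigment epithelium (12), erythroid cells (3) or lens (14) was called, with medians between -0.03 and 0.05.

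The ages pooled on each side were also compared with each other, with fewer arrays per group than in the main contrast, so the counts are not comparable with it. Between P12 and P10, 0 genes were called (limma), 4 passed the adjusted p alone (0.0269%) and 803 had an unadjusted p under 0.05. The 4 were Arhgap31 (-0.95 ± 0.11), Celf3 (-0.75 ± 0.12), the ubiquitin-editing enzyme Tnfaip3 (0.68 ± 0.10) and Aqp1 (0.90 ± 0.15). Between P28 and P21, 368 genes passed the adjusted p alone (2.48%) and 23 were called (0.155%), of which 4 rose (0.0269%) and 19 fell (0.128%). Arxes1 rose 2.86-fold, from 6.56 ± 0.43 (SD, n = 4) to 8.07 ± 0.49 (SD, n = 5), and Tcea1, an elongation factor of RNA polymerase II, rose 2.26-fold. Nsdhl, an enzyme of cholesterol synthesis, fell 3.88-fold, from 8.86 ± 0.18 to 6.91 ± 1.25, with a wide spread at P28. Dcun1d4, of the neddylation machinery, fell 3.20-fold.

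The contrast of P28 with P21 shares its arrays with the main contrast, so values are given side by side only. Of the 128 genes that fell late, 5 were also called fallen between P21 and P28: Ubl5, Olfr1372-ps1, Duxbl1, Ckb and Dynlrb2. The mean of Ubl5 was 9.21 at P10 and P12, 8.98 at P21 and 7.52 at P28, so most of its fall came after P21. Ckb was not called for P21 alone (-0.75, adjusted p = 0.0612, limma). Of the 51 that rose, 0 were called risen between P21 and P28. Guca1a had a mean of 13.01 at P21 and 12.92 at P28, Hk2 of 9.97 and 9.59, and Fabp7 of 6.18 and 5.50.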

How the data were processed

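The authors hybridised 1 array per sample and, per the submitters' processing notes, made gene-level values with RMA in Affymetrix Expression Console 1.3.1.187, with the core annotation of build mm8. The deposited values are log2 RMA intensities, read from 1 table of 16755 transcript clusters and 28 arrays. Of the clusters, 14996 had 1 symbol, 1019 several and 740 none in the platform annotation; those with 1 symbol were kept, and the brightest cluster stood for each of the 135 genes with several, which left 14860 genes. By Entrez number, 14941 of the kept clusters were found in RefSeq (GRCm38.p6) and 0 symbols changed. Values ran from 1.87 to 13.79.

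All 28 arrays entered 1 fit with a separate mean for each age, by limma 3.58.1 in R 4.3.3 (21 residual degrees of freedom), and the contrast set the 9 later arrays against the 8 earlier ones, each array counting equally. Genes were called at a Benjamini-Hochberg adjusted p under 0.05 and at least 2-fold. The steps were tested on simulated data. The number of arrays limits the precision; no batch was given in the sources used here, and no arrays held identical values.

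Named genes are the 12 largest rises and 12 largest falls without overlap between the sides, leaving out uncharacterised and olfactory symbols, the 2 largest each way between ages of one side, up to 4 called members of each list in each direction, and a few shown whatever their value (Nrl, Gnat1, Crx, Otx2, Arntl, Hspa1a, Lbr); some genes are not reported here. Other names are range ends of a list or were chosen after their values were seen. The comparison, the genes and the 36 lists were chosen with earlier results of these data known. A summed level is log2 of the sum of linear values over a list. Same-numbered arrays of different ages did not deviate together (median correlation 0.0175 over 24 pairs, from -0.109 to 0.287). Over 84 other pairs the median was -0.0025, from -0.297 to 0.292. The check covers pairing by number only, and other factors shared by arrays of different ages were not tested.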

Additional observations from a re-analysis of the deposited data

Results flagged for a closer look

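Single arrays far from the rest of their group were looked for in 60 named genes and 6 groupings of the arrays from P10 to P28 (each age and each side), and 24 of the 360 groups held one. Chance marks about 1 group in 20 by this rule, and the groupings share arrays.

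P12 replicate 3 was the array in 10 of the 24. It was the lowest of P12 for Guca1a (9.35, next 11.25), Slc17a4 (6.98, next 7.55), Pdzph1 (9.12, next 10.35), Slc16a1 (7.72, next 8.46) and Tubb2a (10.90, next 11.64). It was the highest of P12 for Ndufa1 (11.06, next 10.35) and also of P10 and P12 together (next 10.63). It was the lowest of P10 and P12 together for Duxbl1 (9.66), Neurod4 (8.14) and Gngt2 (7.23). The other P12 arrays were P12 replicate 2, highest of its age for Nsdhl (9.40, next 8.56) and for Tfap2b (8.14, next 7.25).

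At P10, replicate 4 was high for Arxes1 (7.43), replicate 1 was high for Ndufa1 (10.63), and replicate 2 was low for Epha7 (6.76, next 7.40) and Nefm (8.48, next 9.81). At P21, replicate 1 was low for Neurod4 (5.84, next 7.18). At P28, replicate 1 was high for Riiad1 (5.93, next 4.57) and Rcn1 (6.47, next 5.52), replicate 2 was high for Slitrk6 (6.03, next 4.77) and low for Tceanc2 (5.19, next 6.72), replicate 3 was low for Sgk1 (7.75, next 8.67) and Elovl2 (8.51, next 8.98), and replicate 4 was high for Cdkn2c (7.27, next 6.71). Why these arrays stood apart was not tested.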

How the results depend on the processing

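The counts of the main contrast stayed within 1.5 times under the other settings with the same threshold. With a 1.5-fold threshold, 684 genes were called, 140 risen and 544 fallen. Leaving out 1 array at a time gave 175 to 196 genes, 47 to 53 risen and 122 to 143 fallen. Quantile normalization applied again gave 61 risen and 106 fallen, and cyclic loess 58 and 102, which hold all 51 risen genes; the median change of all genes was 0.028 and 0.006, against -0.017. P21 alone gave 45 and 115, P28 alone 54 and 185, P10 alone as the earlier side 69 and 137, and P12 alone 35 and 136.

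Replicate numbers did not pair the arrays, and the replicate block gave 50 risen and 134 fallen genes in the main contrast, 0 for P12 against P10 and 22 for P28 against P21.

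For P12 against P10, where 0 genes were called, quantile normalization again gave 1, cyclic loess 1, array weights 4, genes with a mean above 7 gave 1, a 1.5-fold threshold 4, and leaving out 1 array 0 to 6, the most without P12 replicate 3. For P28 against P21, where 23 were called, a 1.5-fold threshold gave 153 and leaving out 1 array 18 to 38, the most without P28 replicate 1. No named gene that was called changed direction. Tcea1, not called in the main contrast, was at -0.05 there and at 0.03 without P12 replicate 3. Over all alternatives, single named genes lost the call 49 times and gained one 7 times; the cause was not tested. Arrays near background compress differences of dim genes, and no detection call was used here.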

Other observations

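Further called genes were picked for what they encode after their values were seen, so they are a description with no test. Several genes of secretion and synapses fell. Chgb, a granin of dense-core vesicles, fell 3.14-fold, from 11.25 to 11.88 before to 9.55 to 10.24 after, and its relative Scg3 fell 3.24-fold with overlapping sides. Cplx2, which clamps vesicle fusion in conventional synapses, fell 2.64-fold and Cadps, a priming factor of dense-core vesicles, 2.39-fold. The adhesion and scaffold genes Lrp4, Lrrtm2, Dlg2, Negr1 and Cadm3 fell 3.45-fold, 3.04-fold, 2.55-fold, 2.48-fold and 2.28-fold, each with no overlap between the sides. Slc1a1, a glutamate carrier, fell 2.8-fold, and the G protein subunits Gnao1 and Gng3 fell 2.14-fold and 2.17-fold. Many of these genes are also used by inner retinal neurons, and the part of such cells was not tested.

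Among the remaining rises, Hdac9, a class II histone deacetylase of the kind that binds MEF2 factors, rose 2.54-fold, from 8.76 to 9.43 before to 10.30 to 10.58 after. Hdc, the enzyme that makes histamine, rose 3.24-fold, and Gckr, the regulator of glucokinase, 2.66-fold. Adgrv1, a very large adhesion receptor of the photoreceptor cilium that is mutated in Usher syndrome, rose 2.2-fold. Slc16a6, a relative of Slc16a1, rose 2.04-fold and Mfge8, a bridging protein in the uptake of membranes, 2.12-fold. None of these genes overlapped between the sides.

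In the RefSeq order of protein-coding genes, in which 171 called genes could be placed, 9 pairs of called genes were direct neighbours, and in all 9 both genes moved the same way. Both genes rose in 4 pairs, A130010J15Rik with Traf3ip3, Guca1a with Guca1b, and Slc17a1 with Slc17a3 and with Slc17a4. Both fell in 5 pairs, Aim2 with Cadm3, Bex1 with Tceal5, Celf3 with Riiad1, Dscam with Pcp4, and Isl1 with Parp8. No chance level was computed for this count.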
